A study of Rattus norvegicus with 8 samples.

Results

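The comparison described here set the 12 rats of 3 fiber-containing diets, pooled, against the 4 rats of the reference diet, and asked which genes of the colon moved the same way in each of the 3 diets. The rule took the diet of each dye on each array from the sample labels and placed 12 of the 16 rats in the fiber-containing diets and 4 in the reference diet. Of 19899 genes tested, 10561 (53.1%) had the same sign of change in each diet, 5875 of them higher and 4686 lower than in the reference diet. These counts are fixed by the rule and describe the table. The comparisons of the 3 diets with the reference diet share the same 4 reference rats, so a value that is unusual in those 4 rats moves all 3 comparisons together.

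All animals were female Wistar rats, 6 weeks old according to the labels, and 5 mm of mid-colon were sampled after 3 weeks on a diet. The reference diet (REF, labelled Reference diet) was a standard purified chow that itself contains cellulose, an insoluble fiber. The cocoa diet (C10, labelled Cocoa diet) contained cocoa powder, which brings cocoa fiber together with polyphenols. The cocoa fiber diet (CF, labelled Cocoa fiber diet) had a cocoa fiber preparation with a very low polyphenol content, and the inulin diet (I, labelled Inulin diet) had inulin, a soluble, fermentable fiber. What C10, CF and I share against REF includes added soluble fiber, but all 3 also held less maltodextrin, vitamins and choline and more sucrose than REF, and in C10 and CF part of the cellulose was replaced. The effects of these differences cannot be told apart here. Each group had 4 rats, and each rat was hybridized on 1 of 8 two-colour arrays of a single slide in 1 dye, with 2 rats of each group in Cy5 and 2 in Cy3. The REF group was spread over arrays 1, 2, 7 and 8, the C10 group over arrays 1 to 4, the CF group over 3 to 6 and the I group over 5 to 8, so that no array held a CF and a REF rat.

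Soluble fiber passes undigested to the large bowel, where bacteria ferment it to short-chain fatty acids, mainly acetate, propionate and butyrate. Colonocytes take these up, burn butyrate as fuel and sense them through G-protein-coupled receptors, and fermentation is known to change water and salt uptake, mucus and turnover of the epithelium. Immediate-early genes, by contrast, are transcribed within minutes of a stimulus or stress without new protein synthesis, and many carry cAMP response elements (CRE), AP-1 sites or CArG boxes near their start.

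The tissue label was borne out by the array. Of 10 markers of colon epithelium, 8 had a probe matched by symbol, and all 8, among them Cdx2, Epcam, Krt20 and Cdh17, were well above background in 16 of 16 rats, with log2 signals of 14.6 to 15.58 for Epcam. Albumin (Alb) and alpha-fetoprotein (Afp), which mark liver, were well above background in 0 rats. Transthyretin (Ttr), also made by liver, was dim over the 16 rats (6.08 to 6.43) and well above background in 4 of them. Gfap and Nefl, which glia and neurons of the gut wall also express, were dim but well above background in 7 and 16 rats. Between 70.5 and 77.8% of spots in the 12 diet rats and 68.6 and 83.9% in the 4 REF rats were well above background, and log2 signals under 5.83 to 6.21, depending on the rat, could not be measured. In bulk tissue of this kind, fewer cells of a type and less RNA per cell cannot be told apart.

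No gene passed the pooled test. In limma, 0 of 19899 genes (0%) reached an adjusted p below 0.05, the smallest adjusted p being 0.0817 and 11 genes (0.0553%) lying below 0.10, whereas 1896 genes (9.53%) had an unadjusted p below 0.05 and 1847 (9.28%) also moved the same way in each diet, 898 higher (4.51%) and 949 lower (4.77%). The test that asks for a change in each diet, which takes the largest of a gene's 3 p-values, also gave 0 genes after adjustment, against 183 genes (0.92%) at an unadjusted largest p below 0.05, 100 higher (0.503%) and 83 lower (0.417%). By size, 33 genes moved the same way with a pooled change of at least 2-fold (0.166%), 18 higher (0.0905%) and 15 lower (0.0754%), and the change was at least 2-fold in each single diet in 5 higher (0.0251%) and 4 lower genes (0.0201%). Rank product, the method the study used, called 394 genes that moved the same way in each diet at a percentage of false positives below 0.05, 294 higher and 100 lower. Its permutations reorder the genes within each rat and take no account of how much a gene varies between rats of a group. All changes below are therefore given as values, with the test that they missed.

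**Figure D1:**
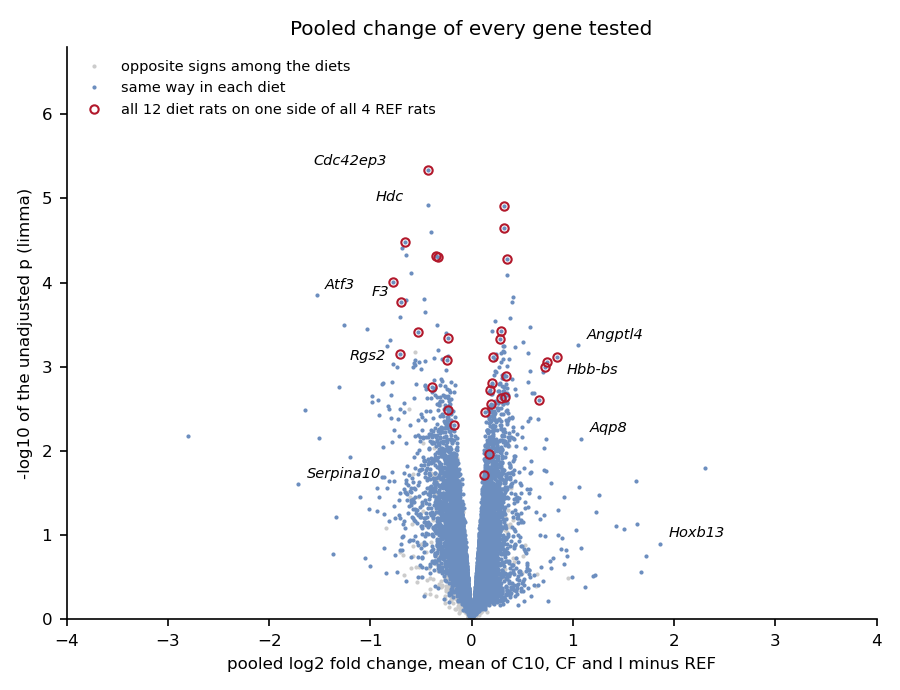
Pooled log2 fold change (mean of C10, CF and I minus REF, x axis) against -log10 of the unadjusted p of limma (y axis) for each of the 19899 genes tested. Blue points moved the same way in each diet, and red circles mark the 32 genes in which the 12 diet rats did not overlap with the 4 REF rats; the largest changes, such as Serpina10 and Hoxb13, are not those with the smallest p.

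In 32 genes (0.161%), the 12 diet rats and the 4 REF rats did not overlap, with the diet rats higher in 19 genes (0.0955%) and lower in 13 (0.0653%). Of these, 8 higher and 12 lower genes have a symbol. Those higher included the globin genes Hbb, Hbb-b1, Hbb-bs and Hba-a1, with Tle4 (a transcriptional corepressor), Cand1 (a factor that exchanges cullin ubiquitin ligases), Mcmbp and the ribosomal protein gene Rpl34, whose changes were between 0.13 and 0.33 on the log2 scale. Those lower included Cdc42ep3, Rgs2, F3, Ltbp2, Bok, Abra, Acaa1b, Dguok, Phlda2, Iffo2 and Tmem222. They were chosen for their separation, so that separation is a description and carries no test.

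Cdc42ep3, an effector of the small GTPase Cdc42 that acts on the actin and septin cytoskeleton, had the smallest p of all genes. Its log2 signal was 10.15, 10.31, 10.25 and 10.12 in the 4 REF rats and ran from 9.61 through a median of 9.76 to 9.98 in the 12 diet rats. Every diet rat lay below every REF rat, and the pooled difference was -0.43 (SE 0.06, adjusted p = 0.0817), with -0.46 in C10, -0.38 in CF and -0.44 in I. The test of a difference between the 3 diets gave an adjusted p of 0.90. Cdc42ep3 passed the threshold where all diet rats were treated as a single group (adjusted p = 0.0237) and without C10 rat 2 (0.00945) or C10 rat 4 (0.0348), and missed it in the other alternatives run.

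Most immediate-early and stress response genes had lower values in the diet rats, though none passed the adjusted threshold. Of 17 members tested, 13 were lower in each of the 3 diets and 0 higher, against 23.5% and 29.5% of all genes, and 5 of the 17 (Atf3, Fos, Nr4a1, Rgs1 and Rgs2) had an unadjusted p below 0.05, where 4.77% of all genes were lower at that p. The median pooled change of the list was -0.207 beside 0.009 for all genes, and 0 members passed the adjusted threshold. By diet the median was -0.101 in C10, -0.128 in CF and -0.36 in I, and the difference of these medians was not tested. Without REF rat 3, C10 rat 1, CF rat 3 and I rat 1, the rats highest in lymphoid genes, the pooled median was -0.024. The list was drawn up with results of these data known, which makes it no independent evidence of its direction. Averaged over the list, the log2 signal was 9.86 to 10.09 in the 4 REF rats and 9.41 to 9.85 (median 9.54) in the 12 diet rats, which did not overlap by a narrow margin. Egr1, Egr2, Egr3, Jun, Junb, Ier2 and Zfp36, which belong to the same class, had pooled changes of only -0.25 to 0.09.

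Atf3, a transcription factor of the cAMP response element family that is induced by many stresses, showed the largest difference of the list. In the REF rats its log2 signal was 11.88, 11.85, 11.57 and 11.45. In the diet rats it was 9.53, 10.88, 9.97 and 9.35 under C10, 10.05, 9.71, 10.42 and 11.73 under CF, and 10.54, 9.85, 9.7 and 9.9 under I. Only CF rat 4 lay within the REF range, and the other 11 lay below it. The pooled difference was -1.53 (SE 0.29, 2.89-fold lower, adjusted p = 0.17), or -1.65 in C10, -1.18 in CF and -1.76 in I. The exact permutation test of 12 against 4 rats, which ignores the pairs of rats on an array, gave an unadjusted two-sided p of 0.0033. The smallest p possible is 0.0011. Without CF rat 4 the difference was -1.69 and the adjusted p 0.0135, so that this rat decides the call; over all alternatives the difference lay between -1.82 and -1.34.

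Fos, the AP-1 subunit that is the classic immediate-early gene, followed a like order at a smaller size. Its log2 signal was 9.23, 9.66, 9.46 and 9.62 in the REF rats and 8.40 to 9.42 (median 8.75) in the diet rats. Of the diet rats 11 lay below all REF rats, with C10 rat 2 the exception, and the pooled difference was -0.65 (SE 0.13, adjusted p = 0.17; unadjusted exact permutation p = 0.0022). For Nr4a1, an orphan nuclear receptor of the same class, the REF rats had 11.1, 10.99, 11.78 and 11.28 and the diet rats 9.66 to 11.44 (median 10.09). C10 rat 2 and CF rat 4 were the 2 rats that lay within the REF range, and the pooled difference was -0.92 (SE 0.25, adjusted p = 0.315), -1.43 of it in I against -0.68 in C10 and -0.64 in CF. The difference between the diets did not pass its test (adjusted p = 0.427).

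Rgs1, Rgs2 and Rgs4 encode regulators of G-protein signalling, which speed up the shut-off of G-protein-coupled receptors. They were named for the size of their change and do not stand for the whole family. Rgs2 was 11.63, 11.83, 12.8 and 11.93 in the REF rats and 10.82 to 11.61 (median 11.28) in the diet rats. The groups did not overlap, the pooled difference was -0.71 (SE 0.16, adjusted p = 0.28), and it was -0.43 without REF rat 3, the REF rat with the highest value. Rgs1 differed by -1.03 (SE 0.22, adjusted p = 0.25) and Rgs4 by -0.98 (SE 0.26, adjusted p = 0.31), but there the diet and REF rats overlapped, with 5 and 8 of the 12 diet rats below all REF rats. C10 rat 1 had the lowest signal of both, 9.01 for Rgs1 and 8.56 for Rgs4.

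Rcan1, an inhibitor of the phosphatase calcineurin, was 11.4, 11.96, 11.14 and 11.21 in the REF rats and 10.37 to 11.16 (median 10.82) in the diet rats, a difference of -0.65 (SE 0.11, adjusted p = 0.0946). F3, which encodes tissue factor, the trigger of the extrinsic clotting pathway, was 10.49, 10.8, 10.45 and 10.34 in the REF rats against 9.17 to 10.28 (median 9.91). All 12 diet rats lay below the REF rats in F3 and 11 of 12 in Rcan1. The pooled difference of F3 was -0.70 (SE 0.14, adjusted p = 0.17), with -0.97 in C10, -0.58 in CF and -0.54 in I. Tnfrsf12a, the receptor of the cytokine TWEAK, differed by -0.89 (SE 0.23, adjusted p = 0.31).

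**Figure D2:**
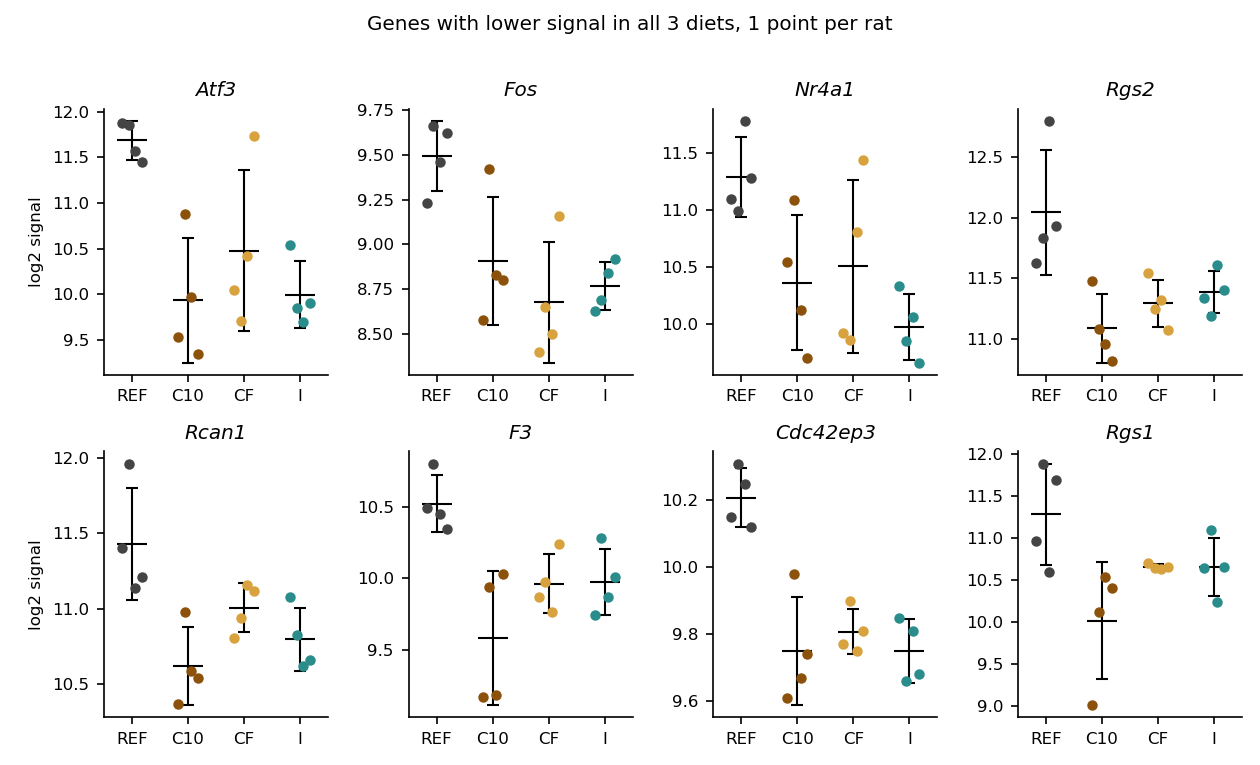
Normalized, dye-adjusted log2 signal (y axis) of 8 genes in each rat (points) of REF, C10, CF and I; horizontal bars are group means and error bars the SD of 4 rats. In Rgs2, F3 and Cdc42ep3 all 12 diet rats lie below the 4 REF rats, while in Atf3 and Nr4a1 CF rat 4 lies within the REF range.

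The promoters of 4 genes with lower values in each diet are shown because some immediate-early genes are controlled through short, known motifs. These 4 do not stand for all genes that were lower. The 250 bases before the start of transcription are given 5′ to 3′ on the gene's strand, from RefSeq (GRCr8): Rcan1 at chr11:45118237-45118486 (minus strand), Nr4a1 at chr7:134259888-134260137 (plus strand), Rgs2 at chr13:58352667-58352916 (minus strand) and Rgs4 at chr13:84475885-84476134 (minus strand). Capitals mark a CRE (TGACGTCA), a CRE-like element (TGCGTCA) or an AP-1 site (TGANTCA), searched on both strands.
Rcan1: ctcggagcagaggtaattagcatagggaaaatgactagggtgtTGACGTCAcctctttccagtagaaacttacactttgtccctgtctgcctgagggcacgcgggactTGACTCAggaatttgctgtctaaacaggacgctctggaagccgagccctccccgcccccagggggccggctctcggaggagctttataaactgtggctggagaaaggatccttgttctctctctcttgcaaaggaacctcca
Nr4a1: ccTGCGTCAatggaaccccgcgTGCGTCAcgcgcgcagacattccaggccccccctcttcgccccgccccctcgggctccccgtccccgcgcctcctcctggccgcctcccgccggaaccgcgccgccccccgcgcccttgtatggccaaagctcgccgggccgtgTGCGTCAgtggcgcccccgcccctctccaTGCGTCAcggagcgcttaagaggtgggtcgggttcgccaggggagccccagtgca
Rgs2: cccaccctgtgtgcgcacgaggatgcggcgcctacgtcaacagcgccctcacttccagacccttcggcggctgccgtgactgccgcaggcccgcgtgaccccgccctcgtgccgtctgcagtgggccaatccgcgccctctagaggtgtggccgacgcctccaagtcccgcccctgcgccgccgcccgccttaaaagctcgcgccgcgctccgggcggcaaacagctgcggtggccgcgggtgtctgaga
Rgs4: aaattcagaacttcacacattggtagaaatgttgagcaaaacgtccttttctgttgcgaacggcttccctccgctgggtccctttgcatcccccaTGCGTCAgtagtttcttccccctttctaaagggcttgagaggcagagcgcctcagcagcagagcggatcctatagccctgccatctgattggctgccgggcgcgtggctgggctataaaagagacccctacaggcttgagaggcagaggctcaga
Rcan1 holds a CRE 207 to 200 bases and an AP-1 site 142 to 136 bases before its start. Nr4a1 holds 4 CRE-like elements, Rgs4 holds 1, and Rgs2 has none of these letters in the window. Rgs1, Cdc42ep3, Ltbp2 and Acaa1b, which were also lower in each diet and are not shown, have none of these letters in their windows either. Of 27457 rat promoters of the same length, 1.7% hold the CRE, 1.84% the CRE-like element and 6.36% the AP-1 site, and 1.5% a CArG box. Of the 13 immediate-early list promoters in the table, 3 hold the CRE (Ier2, Dusp1 and Btg2) and 2 the CRE-like element (Fosl1 and Nr4a1). The AP-1 site is in 0 of them and a CArG box in 3 (Egr1, Egr2 and Zfp36). Fosb, in this set, had no probe matched by symbol. Of the list members lower at an unadjusted p below 0.05, only Nr4a1, Rgs1 and Rgs2 are in the table. Their windows hold neither the CRE nor a CArG box. These matches describe the letters and were not tested as binding sites. Atf3, Fos and F3 had no entry in the promoter table.

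Globin genes formed the clearest group on the higher side. The hemoglobin and red cell list had 10 members tested, of which 7 were higher in each of the 3 diets at an unadjusted p below 0.05, where 4.51% of all genes were, and 0 passed the adjusted threshold. Its median pooled change was 0.545 beside 0.009 for all genes. Hbb, which encodes beta globin, was 13.23, 12.92, 13.21 and 12.91 in the REF rats and 13.46 to 14.52 (median 13.71) in the diet rats, without overlap. The difference was 0.74 (SE 0.18, 1.67-fold, adjusted p = 0.28), with 0.68 in C10, 0.89 in CF and 0.65 in I. Hbb-bs differed by 0.84 (SE 0.20), Hbb-b1 by 0.72 (SE 0.17) and the alpha-globin gene Hba-a1 by 0.67 (SE 0.18). The beta-globin genes Hbb, Hbb-bs and Hbb-b1 are similar copies, and their probes may share signal, so that the 4 globin genes count as fewer than 4 separate measurements. Hba-a3 was dim, well above background in 3 of 4 REF rats and 10 of 12 diet rats, and its difference was 0.49 (SE 0.20).

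Of the other red cell genes, Alas2 and Slc4a1 were also higher in each diet, while 3 members of the list were lower in each diet. Alas2, the first enzyme of heme synthesis in red cell precursors, differed by 0.60 (SE 0.16, adjusted p = 0.31), with 7.38 to 7.87 in the REF rats and 7.75 to 8.90 in the diet rats. Slc4a1, the anion exchanger of the red cell membrane, differed by 0.20 (SE 0.07). Ahsp, the alpha-globin chaperone, and Bpgm, which makes 2,3-bisphosphoglycerate, had differences of -0.22 and -0.11. How much blood each tissue piece held was not measured, and its part in the globin values was not tested.

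Of the 20 symbols whose smallest change over the 3 diets was largest, 10 in each direction, 4 of the higher and all 10 of the lower had an unadjusted p below 0.05 (4.51% and 4.77% of all genes). Rank product, which ranks genes by the size of their change, called all 20, against 394 of all 19899 genes. The 20 were chosen by size of change in this same comparison, so these counts follow from the choice and carry no test. Angptl4, which encodes an inhibitor of lipoprotein lipase, was 7.86, 7.22, 8.5 and 7.2 in the REF rats and 8.15 to 9.35 (median 8.58) in the diet rats. REF rat 3 lay among the diet rats, 7 of which were above all REF rats, and the difference was 1.05 (SE 0.24, 2.07-fold, adjusted p = 0.28), with 1.32 in C10, 1.06 in CF and 0.78 in I. Aqp8, the water channel of colonocytes, was 10.92, 9.84, 9.26 and 10.06 in the REF rats and 9.74 to 11.77 (median 10.65) in the diet rats. The groups overlapped widely, and the fitted difference, which also weighs the pairs of rats on an array, was 1.08 (SE 0.34, adjusted p = 0.379; unadjusted exact permutation p = 0.0758). The plain means of Aqp8 were 10.77 ± 0.66 (SD, n = 12) and 10.02 ± 0.69 (SD, n = 4).

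Ccnd2, a D-type cyclin of the G1 phase, came closest of the higher genes with a symbol to passing in each diet, the largest of its 3 unadjusted p-values being 0.00621. It was 11.3, 11.18, 11.13 and 11.37 in the REF rats and 11.28 to 12.07 (median 11.82) in the diet rats, 11 of which lay above all REF rats. The difference was 0.51 (SE 0.11, adjusted p = 0.28), nearly equal in C10 (0.55), CF (0.55) and I (0.44). The rat within the REF range was C10 rat 1, and without it the difference was 0.65 and passed the threshold (adjusted p = 0.000546). After Hbb, the next by the same measure were Foxk1 (0.29), a forkhead factor, Il6st (0.31), the shared receptor chain gp130, and Mtmr4 (0.32), a phosphoinositide phosphatase, none of them below an adjusted p of 0.28.

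**Figure D3:**
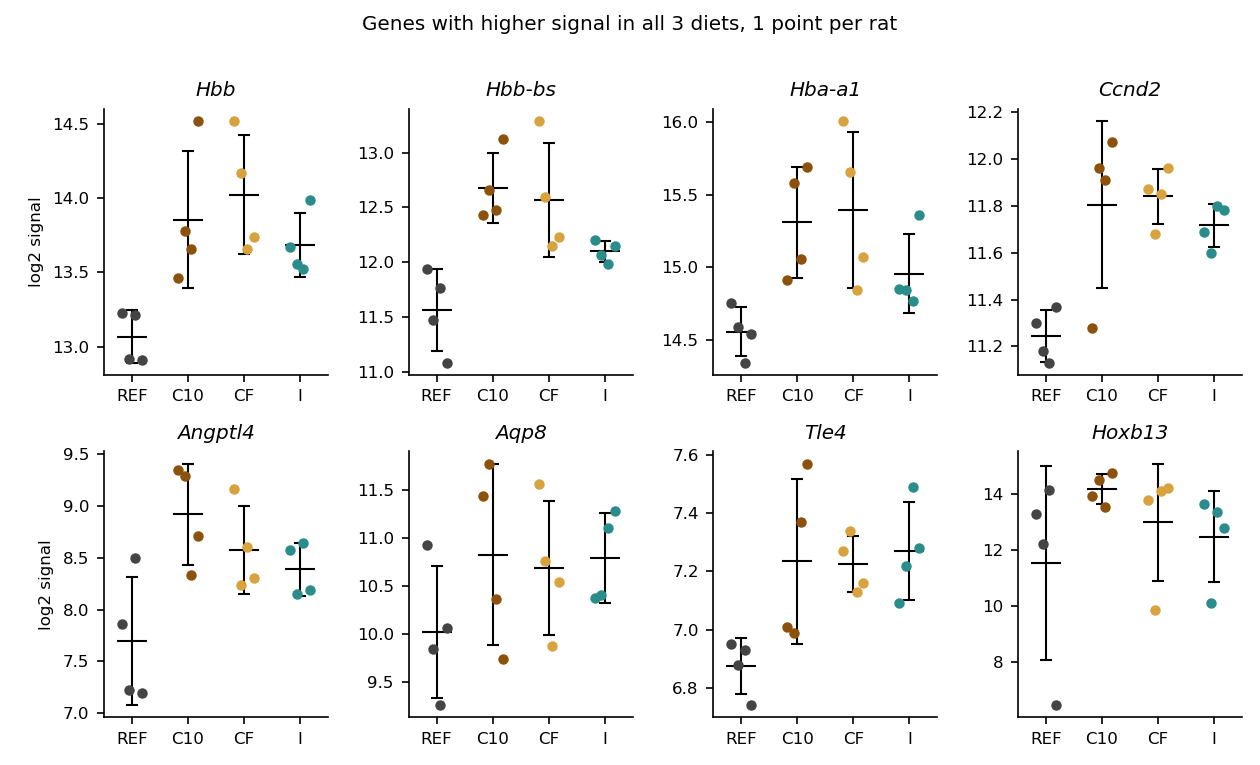
Normalized, dye-adjusted log2 signal (y axis) of 8 genes in each rat (points) of REF, C10, CF and I; horizontal bars are group means and error bars the SD of 4 rats. The 3 globin genes and Tle4 separate the 12 diet rats from the 4 REF rats, whereas in Hoxb13 REF rat 4 and CF rat 2 lie far below the rest of their groups.

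Several of the largest shared changes rested on few rats. Hoxb13, a homeobox gene of the hindmost gut, differed by 1.86 (SE 1.15, adjusted p = 0.637), and the REF rats had 13.29, 12.22, 14.15 and 6.46. Without REF rat 4, whose signal was the lowest, the difference was -0.12. Sval1 (1.67, SE 1.46) had 5.57 in the same rat, against 13.33 to 14.6 in the other REF rats, and became -0.79 without it. Atp12a, the colonic proton and potassium pump (1.72, SE 1.21), became 0.08. Low Hoxb13 also marked CF rat 2 (9.87) and I rat 2 (10.1). Without those 3 rats together the differences were 0.70 for Hoxb13, 0.30 for Sval1 and 1.25 for Atp12a, and 0 genes reached an adjusted p below 0.05, as with all rats.

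Tac4, Bpifb2 and Gkn2 were highest in REF rat 2, REF rat 4 and CF rat 2, and the last 2 of these rats, but not REF rat 2 (12.22), had Hoxb13 below the other rats of their group by a wide margin. Tac4, a tachykinin precursor, was 9.13, 10.48, 7.78 and 10.52 in the REF rats, with 9.42 in CF rat 2 and a median of 7.63 over the diet rats. Bpifb2, a secreted protein of the BPI fold family, was 8.93, 10.41, 7.32 and 10.26 in the REF rats and 7.01 to 9.38 in the diet rats, highest in CF rat 2. The pooled differences were -1.65 (SE 0.46, adjusted p = 0.322) for Tac4, -1.51 (SE 0.48, adjusted p = 0.379) for Bpifb2 and -1.10 (SE 0.47, adjusted p = 0.498) for Gkn2, a gastrokine of the stomach lining. Gkn2 was well above background in 3 of 4 REF rats and 5 of 12 diet rats. Serpina10, the inhibitor that acts with protein Z, was 7.52, 10.79, 7.12 and 9.11 in the REF rats and 10.94 in C10 rat 3, and its difference was -1.71 (SE 0.68). It was well above background in 9 of 12 diet rats, so that the size of its difference is uncertain. Ros1, a receptor tyrosine kinase, differed by -1.31 (SE 0.34, adjusted p = 0.31), with 7 of 12 diet rats below all REF rats and 11 of 12 well above background. Of genes without a symbol, NM_001008871 (-2.80, SE 0.88) and probe A_64_P151259 (-1.26, SE 0.27) were lower, and ENSRNOT00000061381 (1.63, SE 0.84, well above background in 9 of 12 diet rats) and ENSRNOT00000007140 (1.22, SE 1.14) higher.

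**Figure D4:**
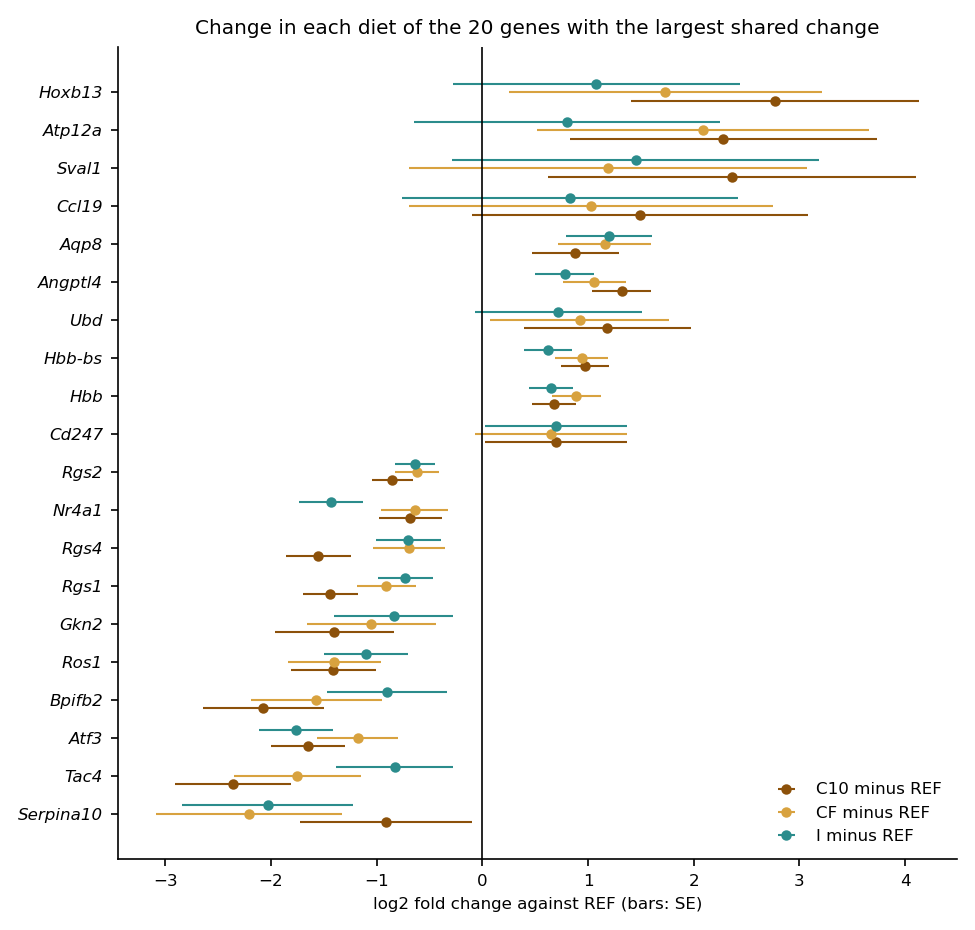
Log2 fold change against REF (x axis, bars are SE of the fit) in C10, CF and I of the 20 genes with a symbol whose smallest change over the 3 diets was largest. Hbb, Hbb-bs, Rgs2 and Atf3 have short bars beside their change, whereas the bars of Hoxb13, Sval1 and Ccl19 reach or cross 0 in at least 1 diet.

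Genes of short-chain fatty acid handling, the route by which fermented fiber reaches the epithelium, showed small values. Of 15 members tested, 1 was higher and 2 were lower in each diet at an unadjusted p below 0.05 (4.51% and 4.77% of all genes), and the list median was 0.045. Slc16a3, a lactate and monocarboxylate transporter, differed by 0.34 (SE 0.11, adjusted p = 0.421), Bdh1, a ketone body enzyme, by -0.27 (SE 0.11) and Bsg, the chaperone of such transporters, by 0.23 (SE 0.16). Among 12 receptor and gut hormone genes, Ffar4, a receptor for long-chain fatty acids, had the lowest p, at -0.47 (SE 0.16, adjusted p = 0.43). Tph1, which makes serotonin in enterochromaffin cells, differed by -0.63 (SE 0.30) and Chga, a granule protein of the same cells, by -0.45 (SE 0.30), but both lay near 0 in I (-0.02 and 0.04). The list median was -0.095.

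Epithelial transport and barrier genes were mixed. Of 20 sodium, chloride and water transport genes, 8 were higher and 1 lower in each diet (29.5% and 23.5% of all genes), and 2 were higher at an unadjusted p below 0.05 (4.51% of all genes), Aqp8 and Guca2b (uroguanylin, 0.71, SE 0.26, adjusted p = 0.448), which was 1.16 in C10 and 0.16 in I. The list median of 0.134 was 0.043 without REF rat 3, 0.059 without C10 rat 2, 0.213 without C10 rat 1 and 0.223 without REF rat 1. The tight junction list had a median of 0.031, and 3 of its 14 members were lower at an unadjusted p below 0.05 (4.77% of all genes), Cldn15 (-0.56), Cldn8 (-0.25) and Cldn2 (-0.24), of which Cldn2 and Cldn15 form cation pores. Mucus and goblet cell genes had a median of -0.288 over 10 members, 7 of them lower and 0 higher in each diet (23.5% and 29.5% of all genes). Agr2 (-0.58, SE 0.25), needed to fold mucin, and Gcnt3 (-0.58, SE 0.29), which branches its sugars, were the largest beside Retnlb (0.95, SE 0.93), a goblet cell product that was lower in C10 (-0.83) and higher in CF (1.61) and I (2.08). The antimicrobial list had a median of -0.043 and 0 of 10 members at an unadjusted p below 0.05. Lyz2 (0.28), Duox2 (0.27) and Slpi (-0.23) had its largest pooled values. Slpi was -1.32 in C10, 0.16 in CF and 0.46 in I (adjusted p of the difference between diets 0.105).

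Most cell cycle genes had lower values, and 0 passed the adjusted threshold. Of 14 members, 10 were lower and 0 higher in each diet (23.5% and 29.5% of all genes), 5 of them at an unadjusted p below 0.05 (4.77% of all genes). The median of -0.187 was -0.09 without REF rat 2, -0.104 without C10 rat 2 and -0.301 without REF rat 4. Birc5 (survivin, -0.41, SE 0.17), Ccna2 (-0.34, SE 0.15) and Ccnb1 (-0.30, SE 0.12), the last 2 being cyclins of the S and M phases, had adjusted p-values of 0.479, 0.498 and 0.465.

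Most lipid genes had lower values. In the sterol and fatty acid synthesis list 12 of 19 members were lower in each diet (23.5% of all genes), 9 of them at an unadjusted p below 0.05 (4.77% of all genes), and 0 passed the adjusted threshold. The median was -0.331, with -0.462 in C10, -0.249 in CF and -0.11 in I, and the difference of these medians between diets was not tested. Idi1 (-0.84, SE 0.19, adjusted p = 0.28) and Hmgcs1 (-0.79, SE 0.20, adjusted p = 0.31) are both of the cholesterol pathway. They were -1.18 and -1.12 in C10 and -0.34 and -0.37 in I. Scd, the stearoyl-CoA desaturase, differed by -0.74 (SE 0.66), with -1.74 in C10, -0.12 in CF and -0.37 in I. Idi1 was 11.11 to 12.04 in the REF rats and 9.98 to 11.69 (median 10.92) in the diet rats. Within arrays 1 to 4 the difference of Idi1 was -1.37 and within arrays 5 to 8 it was -0.21, and C10 lay on the former and I on the latter, so that diet and array set cannot be told apart there except through REF and CF. Of 14 lipid absorption genes 8 were lower in each diet (23.5% of all genes), with a median of -0.166 that was -0.279 without REF rat 3 and -0.11 without REF rat 4, among them Npc1l1, the cholesterol transporter (-0.77, SE 0.24, adjusted p = 0.364), and Apoa4 (-0.69, SE 0.46), while Angptl4 went the other way. The adipocyte list had a median of -0.247 over 10 members (-0.134 without I rat 4). Of these, 4 were lower and 1 higher in each diet (23.5% and 29.5% of all genes), and 5 were mixed. Adipoq (-0.76, SE 0.53), Fabp4 (-0.58, SE 0.23) and Cfd (-0.50, SE 0.32) had the largest values, all most negative in C10. In C10, CF and I, Adipoq was -1.71, -0.19 and -0.37, Fabp4 -1.06, -0.32 and -0.36, and Cfd -1.08, -0.29 and -0.12. None of the 3 passed the test of a difference between diets.

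Muscle and upper gut genes were mostly lower in the diet rats and uneven from rat to rat. Of 13 smooth muscle genes 11 were lower in each diet and 0 higher (23.5% and 29.5% of all genes), 3 of them at an unadjusted p below 0.05 (4.77% of all genes). The median of -0.452 was -0.15 without C10 rat 1, -0.261 without REF rat 1 and -0.723 without REF rat 3. Pln, the regulator of the calcium pump (-1.20, SE 0.41), Casq2, its calcium store protein (-0.79, SE 0.26), and Actg2, enteric smooth muscle actin (-0.77, SE 0.35), had the largest values. The mean over the list was 12.01 to 12.72 in the REF rats and 10.46 to 12.41 in the diet rats, and C10 rat 1 alone lay at 10.46 while the others were at 11.98 or more. The striated muscle list had a median of -0.10, with Tnnc2 at -0.71 (SE 0.47), Ckm at -0.55 (SE 0.26) and Casq1 at -0.50 (SE 0.12); it was -0.054 without I rat 4 and -0.057 without REF rat 1. The stomach and upper gut list had a median of -0.503 (-0.283 without REF rat 4), and 6 of its 10 members were lower at an unadjusted p below 0.05 (4.77% of all genes), Pga5, a pepsinogen, among them (-0.98, SE 0.27, adjusted p = 0.316). Its mean was highest in REF rat 4 (8.60), REF rat 2 (8.45), CF rat 2 (8.15) and I rat 2 (7.93), 3 of which are the rats with low Hoxb13. The list of colon position genes (Hox) had a median of 0.039, with Hoxd10 at 0.46 (SE 0.35) and Hoxd13 at 0.44 (SE 0.36) beside Hoxb13. Which stretch of the colon each piece held was not measured, and its part in these values was not tested.

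Immune genes did not separate the diets from REF. Of 16 genes of chemokines and lymphoid tissue 11 were higher in each diet, and of 14 T cell genes 12 were, against 29.5% of all genes. Only 1 member of each list was higher in each diet at an unadjusted p below 0.05, where 4.51% of all genes were. The lymphoid median of 0.289 was 0.01 without C10 rat 1, 0.039 without REF rat 1, 0.167 without CF rat 3 and 0.189 without REF rat 2. The T cell median of 0.20 was 0.013, 0.038 and 0.094 without the first 3 of these rats, 0.118 without REF rat 4 and 0.413 without REF rat 3. Ccl19 (1.12, SE 1.34), the chemokine that draws T cells to lymphoid tissue, Cxcl13 (0.91, SE 0.70), its counterpart for B cells, and Ltb (0.56, SE 0.69) had standard errors about as large as their difference or larger, as had Cd247 (0.69, SE 0.56), Zap70 (0.40, SE 0.43) and Cd3d (0.33, SE 0.58). Ubd, an inducible ubiquitin-like protein, differed by 0.94 (SE 0.66). The B and plasma cell list had a median of 0.08 (-0.058 to 0.12 with 1 rat left out), with Pou2af1 at 0.62 (SE 0.70) and Cd79b at 0.59 (SE 0.92). The mean of the lymphoid list was 8.03 to 9.59 in the REF rats and 7.97 to 9.98 in the diet rats, and 1 rat in each group was highest, REF rat 3 (9.59), C10 rat 1 (9.77), CF rat 3 (9.98) and I rat 1 (9.79).

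Without those 4 rats, a choice made after their values were seen, 23 genes reached an adjusted p below 0.05 and moved the same way in each diet, 9 higher and 14 lower, against 0 with all rats. Of these, 15 have a symbol. Those higher were Fbxo32, a muscle ubiquitin ligase (0.71), Ccnd2 (0.64), Pam, which amidates peptide hormones (0.61), Klhl24 (0.57), Klf11 (0.55) and Dnaja4 (0.47). Those lower were Fabp1, the liver-type fatty acid binding protein (-1.70), Mfsd2a, a lysophospholipid transporter (-0.64), Mixl1 (-0.54), Hrc (-0.52), Apob, the apolipoprotein of chylomicrons (-0.48), Hdc (-0.47), Tpm1 (-0.46), Rpp25 (-0.40) and C8h11orf65 (-0.39). With all rats the same 15 genes had adjusted p-values of 0.0817 (Hdc) to 0.681 (Fabp1). Atf3 kept its sign and had a difference of -1.35, Hbb of 1.03 and Cdc42ep3 of -0.38, while the median of the immediate-early list was -0.024.

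**Figure D5:**
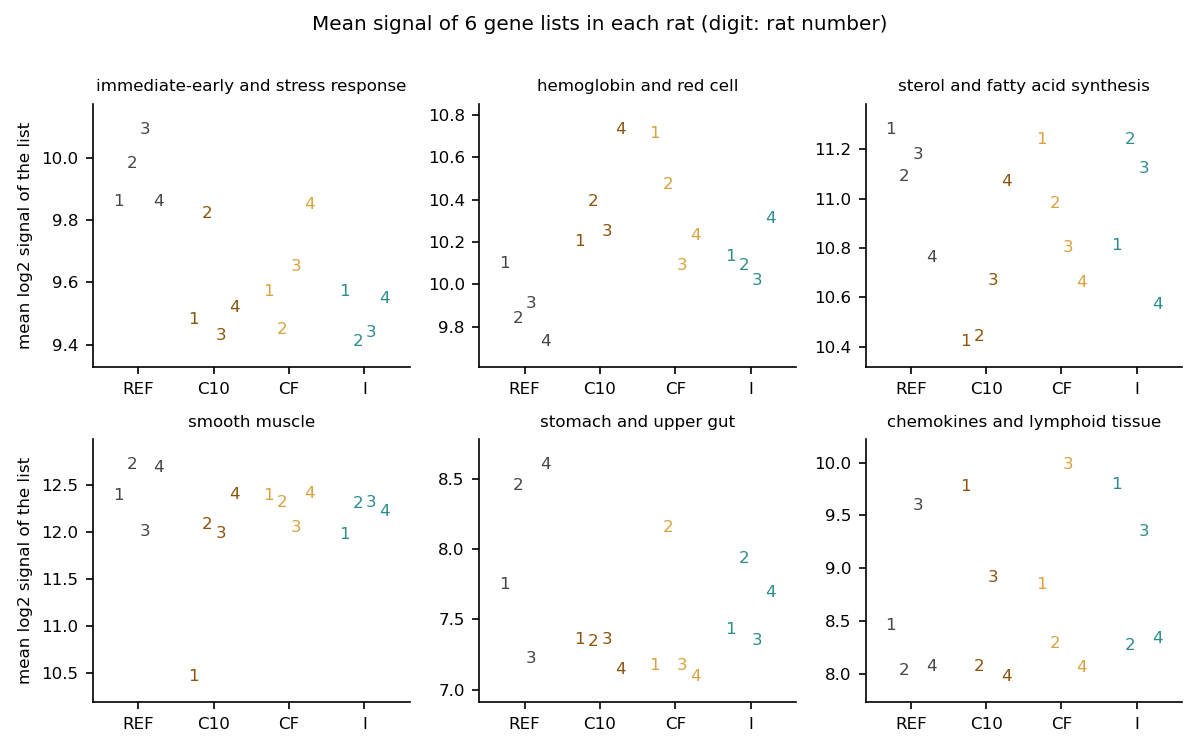
Mean log2 signal (y axis) over the tested members of 6 gene lists in each rat of REF, C10, CF and I, the digit being the number of the rat. The immediate-early list lies at 9.86 or more in the 4 REF rats and at 9.85 or less in the 12 diet rats, and the lymphoid list is highest in REF rat 3, C10 rat 1, CF rat 3 and I rat 1.

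Remaining lists stayed near the median of all genes. With 1 rat left out, the median ran from -0.134 to 0.026 for interferon response, -0.049 to 0.06 for xenobiotic and antioxidant, -0.127 to 0.01 for coagulation, -0.089 to 0.081 for short-chain fatty acid uptake, -0.192 to -0.05 for receptors and gut hormones, -0.045 to 0.07 for tight junction, -0.07 to 0.06 for antimicrobial and -0.026 to 0.107 for colon position genes. Of 16 interferon response genes 2 were higher in each diet at an unadjusted p below 0.05 (4.51% of all genes), Cxcl10 (0.43, SE 0.18) and Mx2 (0.21, SE 0.09), with Oasl at -0.19 (SE 0.16), and the median was -0.037. The xenobiotic and antioxidant list had a median of -0.013 over 16 genes, with Cyp2f4 at 0.88 (SE 0.57), Ces2c at -0.60 (SE 0.26) and Fmo2 at 0.57 (SE 0.49). Coagulation and protease inhibitor genes had a median of -0.001 over 15 members, with Pzp, a broad protease inhibitor, at -1.34 (SE 0.65) beside Serpina10 and F3. Of the other genes fixed for naming, Rec114, well above background in 6 of 12 diet rats, differed by -0.88 (SE 0.22), Kcnj5 by -0.82 (SE 0.41), Scgb1a1 by 1.23 (SE 0.58) and Rnase1 by 0.80 (SE 0.57).

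A small pooled p did not always mean a change common to the diets. The test of a difference between C10, CF and I called 66 genes (0.332%) at an adjusted p below 0.05, and 8 of them were among those that moved the same way with a pooled unadjusted p below 0.05. Hdc, which makes histamine in mast cells and other cells, had one of the smallest pooled p-values (-0.43, SE 0.06, adjusted p = 0.0817), but the difference was -1.09 in C10, -0.17 in CF and -0.03 in I (adjusted p of the difference between diets 0.000124). Ddc, an enzyme of serotonin and dopamine synthesis, was -0.97, -0.71 and -0.11 (adjusted p 0.0327). The mast cell list, whose median was -1.079 in C10, -0.108 in CF and 0.113 in I, was led by Mcpt1, Mcpt10 and Cpa3, mast cell proteases that did not move the same way in each diet. Artn, a neurotrophic ligand (-0.40, SE 0.06, adjusted p = 0.0946), Abra, an actin-binding protein of striated muscle (-0.35, SE 0.06), and Acaa1b, a peroxisomal thiolase (-0.33, SE 0.06), also had an adjusted p below 0.10. These 3 genes did not pass the test of a difference between diets (adjusted p 0.0843, 0.582 and 0.69). In C10, CF and I, Artn differed by -0.64, -0.32 and -0.24 and Abra by -0.44, -0.28 and -0.33. Acaa1b differed by -0.31, -0.40 and -0.28. Abra was dim, at 6.11 to 6.90, and was well above background in 8 of the 12 diet rats.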

How the data were processed

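RNA of the colon was measured on 8 Agilent two-colour arrays of 1 slide, each holding 2 rats. The scanner output that the authors deposited, made with Agilent Feature Extraction 10.7.3.1, gives the median intensity and local background of each of 62976 spots in either dye, not normalized; its processed intensities served as an alternative. The 8 columns of a further, normalized file match no sample label and were left out.

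Signals were processed with limma 3.58.1 (R 4.3.3, statmod 1.5.0): normexp with an offset of 50, spatial loess (span 0.4), intensity loess (span 0.3) and Aquantile. The methods name the steps, while the offset and spans were chosen here. Outlier spots were left out (604 to 896 per array) and 0 spots were saturated. Probes well above background in at least 4 of 16 rats were kept (22537 of 30367), and each gene is its brightest probe. Of 19899 genes, 11921 have a current RefSeq symbol and 7978 carry the identifier of the array file. The number of arrays limits the precision; the median SE of the pooled log2 change was 0.08.

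A linear model of the 16 log2 signals had terms for diet and dye and treated rats on the same array as correlated (0.422), with empirical Bayes moderation; the contrast was the mean of C10, CF and I minus REF, and p-values were adjusted by Benjamini-Hochberg over all genes. Fitted changes weigh the pairs on an array and can differ from plain differences of means. The values per rat are log2 signals after removal of the dye effect. A gene passed in each diet by the largest of its 3 p-values; a moderated F test compared the diets. The exact permutation test takes all 1820 choices of 4 rats, two-sided, on the dye-adjusted signals. It takes no account of the rats that share an array. Rank product was coded anew, with 100 permutations. The linear model and the rule for separated genes were tested on simulated data, and the other steps were not. The methods describe dye swaps of each sample, but the labels give each rat 1 array and 1 dye. The labels give each channel its own sample number, taken here as 1 rat each; which rats shared a cage is not given in the sources used here, and p-values measure the spread between these samples only.

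Genes and lists were chosen with earlier results of these data known. Genes are named by these rules: those passing the pooled test (at most 12 per direction), the 10 symbols per direction with the largest smallest change over the diets, the 5 with the lowest largest p, of each of 23 lists the members passing or else the 3 with the largest pooled change, at most 2 without symbol per direction, and a fixed set of genes. Genes named for separation, for the lowest pooled p, for a motif or for passing without 4 rats were added after their values were seen, as were other members named within a list. Spink4, of the fixed set, was not analysed here, and a few genes that these rules or the lists name are not reported here.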

Additional observations from a re-analysis of the deposited data

Results flagged for a closer look

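Among the named genes, 440 groups of 4 rats were examined for a rat far from the other 3 of its diet, and 21 (4.77%) had one, where chance alone gives about 1 group in 20. CF rat 2 accounts for 8 of them, with a log2 signal of 9.38 for Bpifb2, 8.33 for Gkn2, 9.42 for Tac4, 8.95 for probe A_64_P151259 and 14.38 for Bsg, all above the other CF rats, and of 9.82 for Atp12a, 9.87 for Hoxb13 and 7.82 for Sval1, all below them. REF rat 4 stood alone at 5.57 for Sval1, REF rat 3 at 11.13 for Ubd and REF rat 2 at 9.27 for Casq2. In CF rat 3 the signal was 8.36 for Foxk1 and 10.65 for Guca2b. In the C10 group rat 3 had 9.02 for Artn and 12.58 for Ffar4, rat 4 had 13.03 for Bok, rat 2 had 9.26 for Ccnb1 and rat 1 had 7.24 for Ckm. In the I group rat 4 had 15.36 for Hba-a1, rat 2 had 12.66 for Retnlb and rat 1 had 16.25 for Rpl34.

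A difference between C10, CF and I passed the moderated F test of limma in 5 of 110 named genes, beside 66 of all 19899 genes (0.332%). Many named genes were chosen for the size of their change, so this count carries no test. The adjusted p was 0.000124 for Hdc, 0.00417 for Mcpt1, 0.00563 for Mcpt10, 0.0327 for Cpa3 and 0.0327 for Ddc. In each of the 5 the difference from REF was most negative in C10.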

How the results depend on the processing

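The count of 0 genes at an adjusted p below 0.05 stayed at 0 under normexp without offset, processed signals, intensity loess only, no or quantile normalization between arrays, both filters, the mean of probes, no dye term, log-ratios within arrays, a term for the 2 sets of arrays, CF and I without C10, a 2-fold limit and within arrays 1 to 4. It was 1 with the diet rats as a single group, 1 within arrays 5 to 8 and 394 by rank product. With 1 rat left out it was 0 to 9 (9 without C10 rat 4). Arrays 1 to 4 hold no I rat and arrays 5 to 8 no C10 rat, so these 2 settings leave out a diet. The count of genes past the test in each diet was 0 throughout, also with 1 rat left out (0 to 0). The 32 separated genes became 6 without normalization between arrays and 32 to 266 with 1 rat left out (126 without REF rat 1, 49 without REF rat 2, 266 without REF rat 3 and 62 without REF rat 4); fewer rats to separate raise this count by construction. Of alternatives added after the data were seen, leaving out REF 4, CF 2 and I 2 gave 0 and 94, and leaving out REF 3, C10 1, CF 3 and I 1 (the lymphoid-rich rats) gave 23 and 430 genes. List medians moved by more than the spread between rats for mast cell (-0.614 with processed signals), stomach and upper gut (-0.987 without offset, -1.398 with processed signals, -0.946 without the 4 lymphoid-rich rats), cell cycle (-0.373 without REF 4, CF 2 and I 2), hemoglobin (0.753) and immediate-early genes (-0.024), both without the 4 lymphoid-rich rats.

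Pooled differences of the genes reported here changed sign in few alternatives. Arrays 1 to 4 hold no I rat and arrays 5 to 8 no C10 rat, so values within them leave out a diet. With all rats, Mcpt1, Mcpt10, Retnlb and Slpi had opposite signs in C10 and I. Within arrays 1 to 4 the differences were -0.04 for Bsg, -1.27 for Retnlb and -0.11 for Sval1. Within arrays 5 to 8 they were -0.08 for Cd3d, -0.20 for Cd79b, -0.06 for Ltb and -0.35 for Lyz2. There they were also 0.13 for Mcpt1, 0.01 for Mcpt10, 0.11 for Slpi and 0.09 for Tnnc2. With CF and I alone they were 0.27 for Mcpt1 and 0.31 for Slpi, and without the 4 lymphoid-rich rats -0.07 for Bsg and 0.02 for Tnnc2. With 1 rat left out they ran from -0.09 to 0.40 for Bsg, -0.13 to 0.87 for Cd3d, 0 to 1.55 for Cd79b, -0.12 to 2.79 for Hoxb13, -0.02 to 0.70 for Lyz2, -0.07 to 1.22 for Pou2af1, -0.19 to 1.62 for Retnlb and -0.79 to 2.65 for Sval1. The cause was not tested. No paired analysis was possible because replicate numbers were given in accession order and pair no rats; the array was the block.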
